A study of Mus musculus with 21 samples.

Results

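Estrogen receptor α (ERα) peaks of fat and liver were examined at Xbp1, Rara, Ccnd1, Myc, Ctsd, Tff1, Ltf, Ccn5 and Susd3, which are known as estrogen targets in breast cancer cells or, for Ltf, in the mouse uterus. They are 9 of the 21631 protein-coding genes on chromosomes 1 to 19 and X. They were chosen by name. A peak was assigned to a gene when its summit lay inside the span of the gene or within 25 kb of it, and all 9 genes had at least 1 peak in at least 2 of the 5 lists, as did 67.3% of all protein-coding genes. Of 72690 peaks in the 5 lists together, 60 were assigned to these genes.

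The peaks come from chromatin immunoprecipitation and sequencing (ChIP-seq) of ERα in CD-1 mice aged 10 weeks. The groups were visceral white fat with estradiol (labelled vWAT, 4 libraries), subcutaneous white fat with estradiol (scWAT, 3), brown fat with estradiol (BAT, 1), Liver with estradiol (2) and vWAT with vehicle (2). The tissue abbreviations are read in their usual sense, since the labels do not spell them out, and they state no sex, dose, route or duration of treatment. The libraries of a group share 1 deposited peak list, so a spread over animals was not measured and no test was made. The lists held 20715, 17971, 5193, 21411 and 7400 peaks on these chromosomes. Each peak carries the authors' enrichment, a ratio over a background that is not given in the sources used here. It was read within a list, as a rank and as that rank in percent of the list, so that a small percentage is a strong peak. Peaks of equal enrichment all took the best rank of their tie. For a tied peak the percentage is thus below the share of the list that ranks at least as high. The read depth is unknown here, and shares below are counts over genes or peaks. The lists hold no expression, so the tissue labels were not checked against expressed markers. Of 5 fat marker genes, 5 had a peak with estradiol in vWAT, 4 in scWAT, 1 in BAT and 3 in Liver, and 1 had a peak with vehicle in vWAT. Of 4 liver marker genes the counts were 1, 0, 0, 2 and 0 in the same order, of 3 brown fat genes 3, 2, 1, 2 and 1, and of 9 genes of epithelium, endothelium, immune cells or mesothelium 5, 4, 2, 8 and 5. In whole tissue, fewer cells of a type that binds the receptor and less binding per cell cannot be told apart.

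ERα is a nuclear receptor for estradiol that binds DNA either at a palindromic element or through other transcription factors. In human breast cancer cells it acts largely from enhancers that lie away from the genes it controls. There it raises the levels of XBP1, a factor of the unfolded protein response, RARA, a retinoic acid receptor, MYC and cyclin D1, which drive growth and the cell cycle, and of the secreted or lysosomal proteins TFF1 and cathepsin D. Several of these genes are also expressed, under other regulators, in tissues that are not epithelial.

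The promoter table used, made from RefSeq on GRCm38.p6, the assembly of mm10, had windows of 300 bases (250 before to 50 after the annotated start) for Xbp1, Rara, Ctsd, Ltf and Susd3. Ccnd1, Myc, Tff1 and Ccn5 were not in it. The palindromic estrogen response element GGTCANNNTGACC occurred in none of the 8 windows of these 5 genes, also when 1 mismatch in its arms was allowed. Over all 32851 windows of the table it occurred in 0.07%, and in 0.877% with a mismatch. A single arm, GGTCA or TGACC, occurred in 40.5% of all windows. Searching for the palindrome used its own letters, which read the same on both strands, and each full palindrome also holds both arms. Ccdc117, the neighbour of Xbp1 at the strongest peak of the set, and Tff2 are each nearest to a peak of the set but had no window to search. Of the 8 windows and those of the other genes nearest to a peak of the set, 3 overlapped a peak and are shown for that. The window of Ctsd is shown for its arms. The first belongs to LTO1, the neighbour of Ccnd1, where 4 of the lists had a peak over the window (chr7:144914850-144915149, plus strand, mm10). The next is that of Cdc6 (chr11:98907901-98908200, plus strand), next to the locus upstream of Rara that was found in all 5 lists, where peaks of scWAT and of vWAT with vehicle reached into the window. Another is that of Xbp1 (chr11:5520391-5520690, plus strand), where a Liver peak began at the end of the window. The last is that of Ctsd (chr7:142387778-142388077, minus strand), near a weak peak of scWAT and of vWAT with vehicle. Letters run 5′ to 3′, and capitals mark arms of the element.
LTO1: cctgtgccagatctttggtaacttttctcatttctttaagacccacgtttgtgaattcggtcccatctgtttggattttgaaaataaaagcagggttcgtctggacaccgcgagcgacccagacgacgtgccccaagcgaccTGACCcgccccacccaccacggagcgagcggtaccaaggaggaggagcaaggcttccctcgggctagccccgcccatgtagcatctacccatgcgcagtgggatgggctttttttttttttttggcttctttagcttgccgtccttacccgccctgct
Cdc6: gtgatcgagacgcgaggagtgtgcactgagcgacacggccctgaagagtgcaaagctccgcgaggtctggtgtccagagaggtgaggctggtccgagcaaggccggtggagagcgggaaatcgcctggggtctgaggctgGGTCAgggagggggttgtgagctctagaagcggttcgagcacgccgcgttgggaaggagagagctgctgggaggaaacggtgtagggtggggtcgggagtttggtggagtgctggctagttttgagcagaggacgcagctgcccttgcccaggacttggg
Xbp1: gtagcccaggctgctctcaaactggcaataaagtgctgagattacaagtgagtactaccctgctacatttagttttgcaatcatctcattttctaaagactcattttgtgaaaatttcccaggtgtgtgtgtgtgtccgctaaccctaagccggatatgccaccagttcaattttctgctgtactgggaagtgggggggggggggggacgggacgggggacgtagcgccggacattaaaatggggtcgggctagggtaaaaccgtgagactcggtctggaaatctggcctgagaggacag
Ctsd: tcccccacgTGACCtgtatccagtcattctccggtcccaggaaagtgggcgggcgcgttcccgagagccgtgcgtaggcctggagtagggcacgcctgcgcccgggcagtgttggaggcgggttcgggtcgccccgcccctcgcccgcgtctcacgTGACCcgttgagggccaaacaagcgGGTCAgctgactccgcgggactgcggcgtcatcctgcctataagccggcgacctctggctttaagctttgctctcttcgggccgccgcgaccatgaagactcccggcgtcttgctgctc
The LTO1 window held 1 arm, which lay under a peak in vWAT with estradiol, scWAT, Liver and vWAT with vehicle. The Cdc6 window held 1 arm, which lay under no peak, and the Xbp1 window held none. The Ctsd window held 3 arms, the most of the windows searched, and was picked for that. That number was reached by 2.35% of all windows, and none of the 3 arms lay under a peak. The windows of Ltf and Susd3 held 1 arm each, and those of Rara held 1 or none. A match of letters is a description of the window and not a binding site.

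How the 9 genes compared with genes in general depended on the distance allowed. With a distance of 25 kb, 7 of 9 had a peak in vWAT with estradiol, against 61.5% of all protein-coding genes. In scWAT 8 of 9 had one (all genes, 61.0%), in BAT 4 of 9 (29.7%), in Liver 8 of 9 (67.5%) and in vWAT with vehicle 6 of 9 (44.8%). With a distance of 5 kb the counts were 3, 4, 0, 3 and 2 of 9, against 46.4%, 45.5%, 18.9%, 50.8% and 31.5% of all genes, so the share of the 9 genes was then below that of all genes in each list, and at 25 kb above it. Inside the span alone the counts were also 3, 4, 0, 3 and 2 of 9, against 28.6%, 26.5%, 10.7%, 33.3% and 16.1% of all genes, so the share of the 9 genes was above that of all genes in vWAT with either treatment and in scWAT, equal in Liver and below in BAT. The genes have short spans, with a median of 11.9 kb against 17.3 kb over all genes, and a median of 1 other protein-coding gene within 25 kb, against 2. Nothing particular to these genes was read from the counts.

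**Figure D1:**
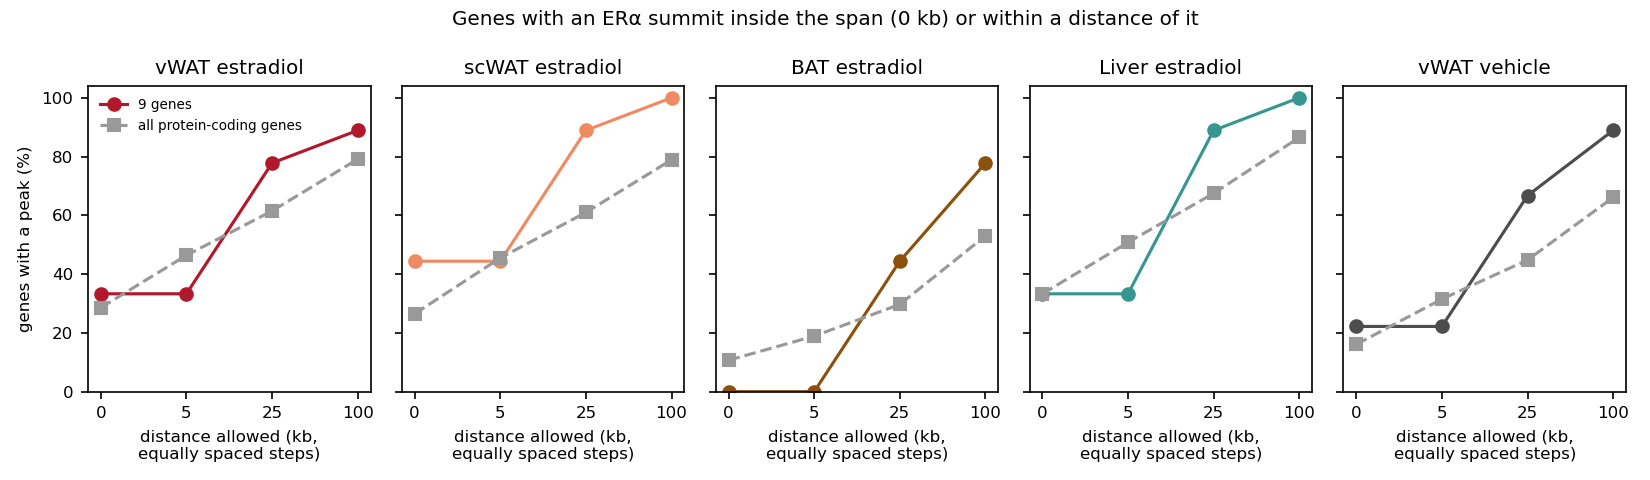
The percentage of genes with an ERα summit inside the span (0 kb) or within 5, 25 or 100 kb of it, for the 9 genes (circles, coloured) and all protein-coding genes (squares, grey), in 1 panel per peak list. The 9 genes lie above all genes at 25 kb in each list, and below them at 5 kb.

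Xbp1, Rara and Ccnd1 had a peak in each of the 5 lists, as did 21.1% of all genes. Ctsd, Ltf and Ccn5 had one in 4 lists (19.9% of all genes), and Myc, Tff1 and Susd3 in 2 (12.2%). Myc had peaks in vWAT with estradiol and in Liver, Tff1 in scWAT and Liver, and Susd3 in vWAT with estradiol and scWAT. Peaks that overlapped between lists were merged into 36 loci. Of these, 2 were found in all 5 lists (5.56%, against 3.02% of the 48300 loci of the whole series), 2 in 4 lists (5.56%, against 3.7%), 9 in 2 lists (against 15.7%) and 23 in a single list (63.9%, against 72.3%). Of the 9 loci of 2 lists, 7 were those of vWAT with estradiol and scWAT, a pair that made up 65.2% of all such loci in the series.

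**Figure D2:**
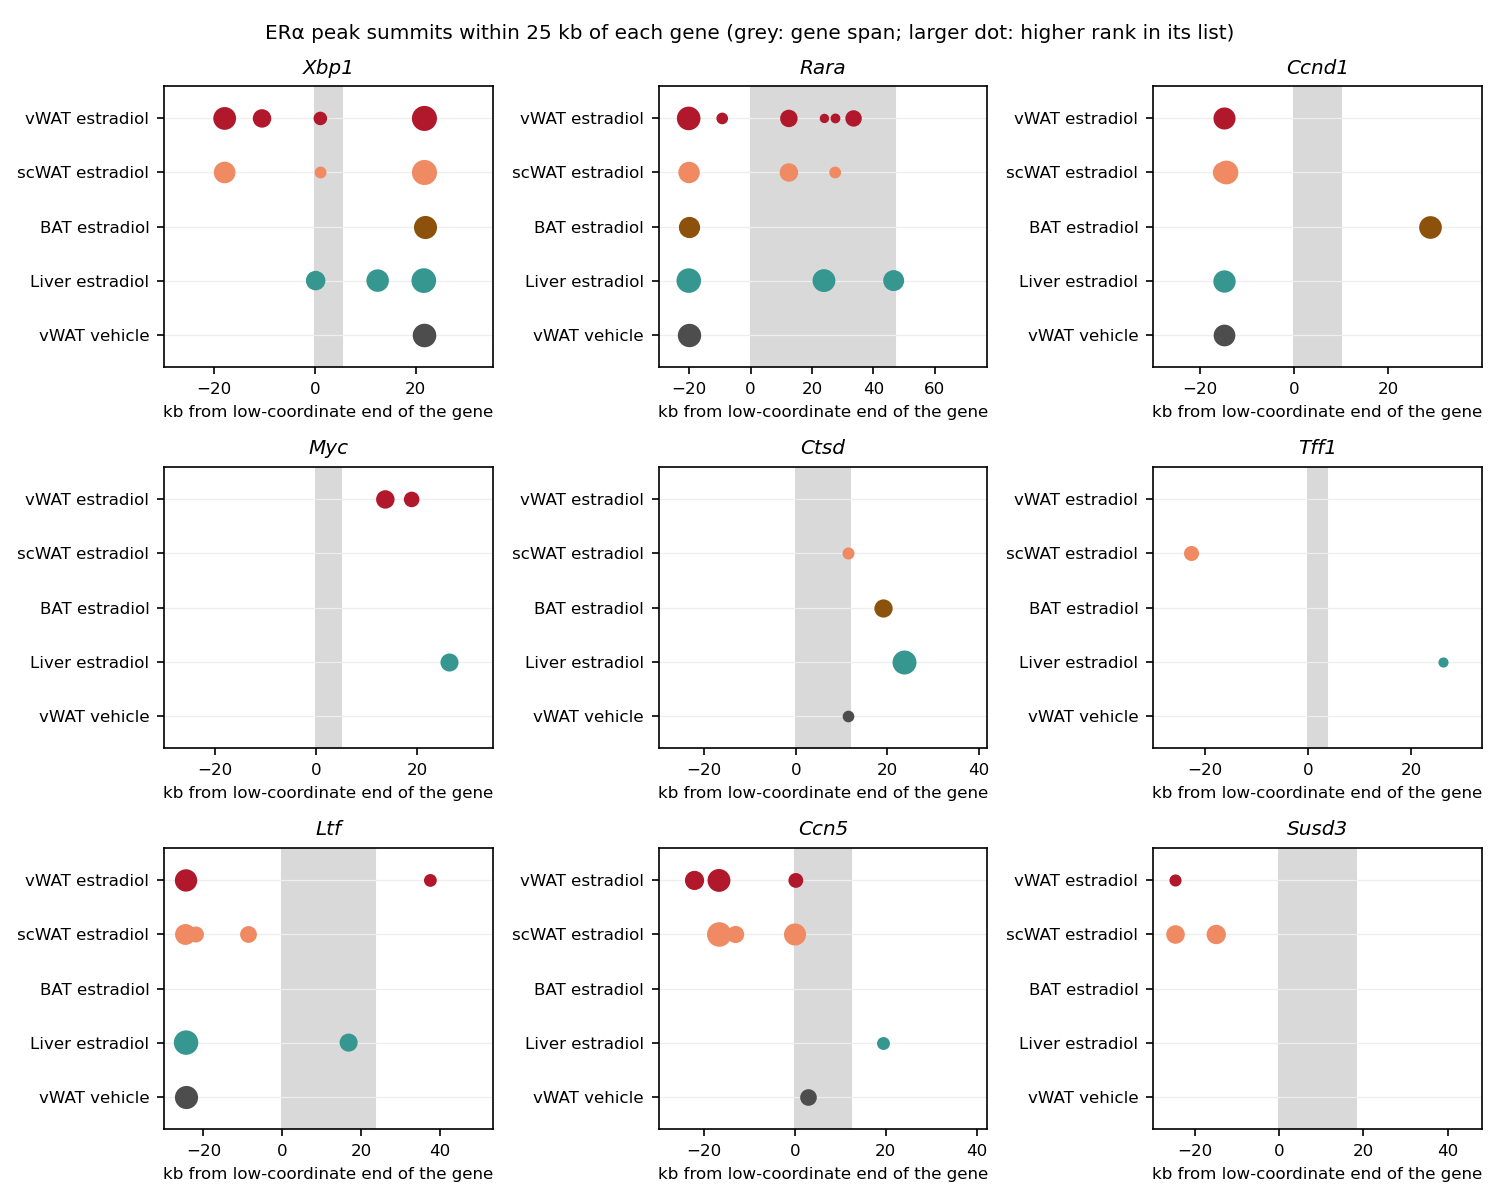
Position of every ERα summit within 25 kb of the 9 genes, in kb from the end of the gene with the lower coordinate, 1 row per peak list and 1 panel per gene. Grey bands are gene spans, and larger dots are peaks of a higher rank in their list. Summits in the same column of a panel recur between lists, as at the far right of Xbp1 and the far left of Rara.

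Xbp1 had the strongest peak of the set. The gene is on chromosome 11 (chr11:5520641-5525993, plus strand), and Xbp1 is a transcription factor of secretory cells and of the unfolded protein response. A peak 16.3 to 16.4 kb downstream of it ranked 57 of 20715 in vWAT with estradiol (enrichment 19.4, the first 0.275% of the list) and 55 of 17971 in scWAT (16.4, 0.306%). At the same place the enrichment was 5.33 in BAT (rank 965, 18.6%), 9.88 in Liver (rank 848, 3.96%) and 9.68 in vWAT with vehicle (rank 1044, 14.1%). The peak was thus among the first 1% in both white fat lists with estradiol, and lower in the order of the other lists. It lay at an end of the neighbouring gene Ccdc117 rather than at Xbp1. The summits of vWAT with estradiol, scWAT and BAT were 165, 169 and 184 bp beyond that end. Those of Liver and of vWAT with vehicle were 34 and 73 bp beyond it, so the summits of the first 3 lists lay within 19 bp of each other and those of the others nearer to Ccdc117.

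The other peaks of Xbp1 were weaker and divided by tissue. A peak 17.9 kb upstream in vWAT with estradiol (enrichment 7.27, 21.1%) had a counterpart 18.0 kb upstream in scWAT (4.14, 30.9%), with summits 11 bp apart. Another, 10.5 kb upstream (4.65, 54.8%), was listed in vWAT with estradiol alone. Inside the gene, vWAT with estradiol (3.83, 83.4%) and scWAT (2.68, 91.0%) had overlapping peaks with summits 1057 and 1107 bp after the annotated start. Liver had its own peak nearer to the start, with the summit 122 bp after it (4.01, 47.5%), and another 7.09 kb downstream inside Ccdc117 (4.92, 23.6%). Neither Liver peak overlapped one of fat. With vehicle, vWAT had the peak at Ccdc117 alone.

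Rara, the retinoic acid receptor α gene (chr11:98927800-98974942, plus strand, mm10), had 6 peaks in vWAT with estradiol, 3 in scWAT, 1 in BAT, 3 in Liver and 1 in vWAT with vehicle. Its span, 47.1 kb, is the longest of the set. The peak common to the 5 lists lay 20.1 to 20.2 kb upstream, at the low-coordinate end of Cdc6, a gene of DNA replication licensing. Cdc6 is on the plus strand, so this is the side of its start. Its enrichment was 8.75 in vWAT with estradiol (rank 2921, 14.1%), 4.08 in scWAT (rank 5816, 32.4%), 4.51 in BAT (rank 1774, 34.2%), 8.77 in Liver (rank 1071, 5.0%) and 9.01 in vWAT with vehicle (rank 1184, 16.0%). All 5 summits were within 97 bp of that end of Cdc6 and 407 to 539 bp before the annotated Cdc6 start. The remaining peaks of vWAT with estradiol had no vehicle counterpart and were of low rank, at 61.3% to 99.8% of the list. Among these, a peak inside Rara was also found in scWAT (enrichment 4.49 and 61.3% in vWAT, 3.33 and 54.7% in scWAT), with summits 540 and 553 bp after an annotated Rara start. One at 98.4% of the vWAT list also had a scWAT counterpart (91.2%), and 1 at 99.8% overlapped a Liver peak of higher rank (enrichment 5.07, 20.7%). The other 2, 9.26 kb upstream inside Cdc6 (3.56, 91.7%) and inside Rara (4.26, 67.9%), were in vWAT with estradiol alone. A second Liver peak inside the gene (4.23, 36.4%) was in no fat list.

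Ccnd1, which encodes cyclin D1 of the G1 phase, is on chromosome 7 (chr7:144929931-144939831). Its span and 5 kb around it held no summit in any list. A peak about 15 kb to the low-coordinate side, at the start of LTO1, was found in 4 lists. Its enrichment was 6.40 in vWAT with estradiol (27.3%), 3.84 in scWAT (37.1%), 4.84 in Liver (24.9%) and 6.11 in vWAT with vehicle (30.2%). The summits lay 182, 258, 79 and 140 bp before the annotated LTO1 start, in the window printed above or, in scWAT, just before it. In scWAT a further and stronger peak lay 417 bp after that start (6.44, 12.2%), and the single vWAT peak with estradiol, 1119 bp wide, reached over both. BAT had no peak there and had 1 on the other side of Ccnd1, 18.9 kb away (5.15, 21.9%), which was in no other list.

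Myc, the growth-promoting transcription factor gene (chr15:61985341-61990361), had its peaks on its high-coordinate side. In vWAT with estradiol they lay 8.73 kb (enrichment 4.65, 54.8%) and 13.9 kb (4.08, 72.9%) from the gene. In Liver a peak lay 21.4 kb away (3.33, 57.4%), with a −log10 q-value of 1.29. Its Liver rank, 12291, is the best of a tie that also holds a peak inside Ltf. The Liver peak near Ccn5, with a slightly lower enrichment of 3.23, ranked 18494 (86.4%). None of the 3 overlapped a peak of another list. The nearest summits elsewhere were 50.9 kb away in scWAT, 60.5 kb in BAT and 89.5 kb in vWAT with vehicle.

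**Figure D3:**
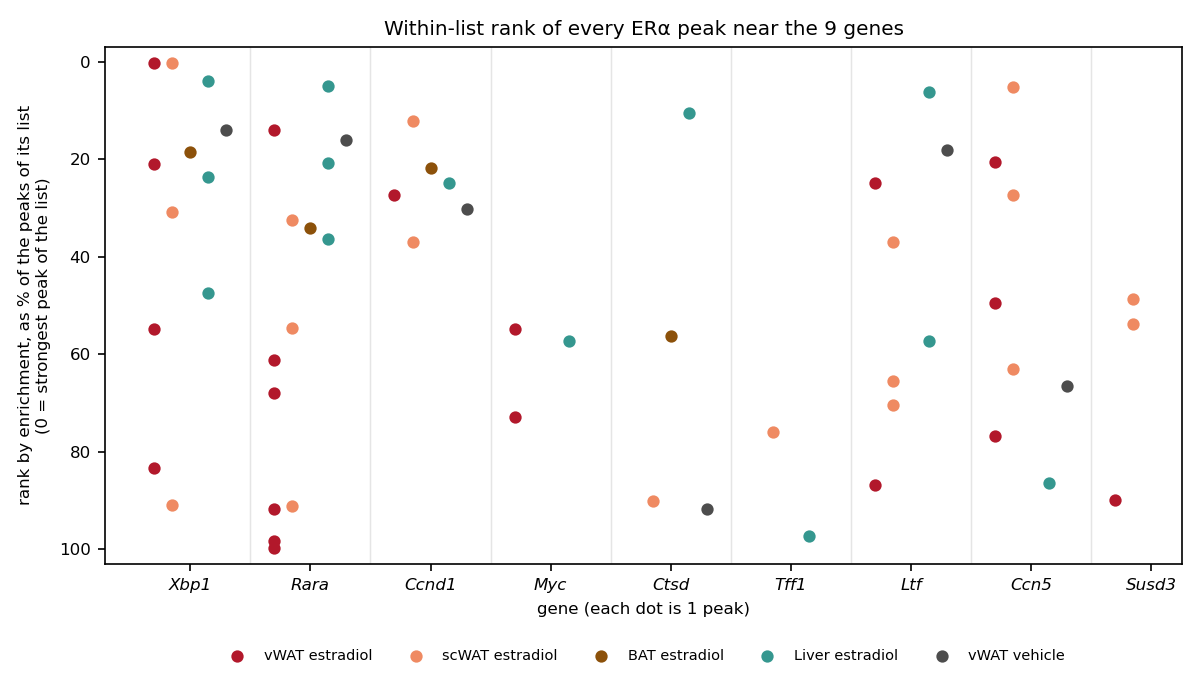
Within-list rank by enrichment of each of the 60 peaks near the 9 genes, in percent of its list (vertical axis, strongest at the top). Tied peaks stand at the best rank of their tie. Peaks are arranged by gene and, from left to right within a gene, by list. The Xbp1 peaks of vWAT with estradiol and scWAT lie at 0.275% and 0.306%, and most peaks of the other genes rank outside the first 10% of their list.

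Ctsd and Tff1, which are among the best known ERα targets in human breast cancer cells, had no peak in vWAT with estradiol. Apart from a Liver peak of Ctsd at 10.5%, their peaks in the other lists ranked at 56.2% to 97.3%. Ctsd encodes the lysosomal protease cathepsin D (chr7:142375910-142387827, minus strand). Just inside its annotated start, scWAT had a peak 386 bp after the start (enrichment 2.70, 90.2%) and vWAT with vehicle one 399 bp after it (3.54, 91.8%). Fewer than 10% of the peaks of each of these lists ranked lower. Upstream, BAT had a peak 7.08 kb away (4.14, 56.2%) and Liver one 11.8 kb away (6.31, rank 2255, 10.5%), each in a single list. The nearest summit of vWAT with estradiol was 32.9 kb away. Tff1 encodes a secreted trefoil peptide of mucosal epithelium (chr17:31161395-31165060). A scWAT peak 22.7 kb from it (2.92, 75.9%) was nearer to Tff2, and a Liver peak 22.4 kb away (2.48, 97.3%) lay inside Tmprss3, with a −log10 q-value of 0.390. In vWAT with estradiol, BAT and vWAT with vehicle the nearest summits to Tff1 were 111, 111 and 113 kb away.

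Ltf encodes lactoferrin, an iron-binding protein of milk and granulocytes that estrogen raises in the mouse uterus (chr9:111019292-111042766, plus strand). The peak found in 4 lists lay near the limit of the distance allowed, 24.4 to 24.6 kb upstream. Its enrichment was 6.64 in vWAT with estradiol (rank 5174), 3.85 in scWAT (37.0%), 7.89 in Liver (rank 1312, 6.13%) and 8.36 in vWAT with vehicle (18.1%). It was nearer to Rtp3, whose span ends 4477 to 4624 bp from the summits, and the nearest BAT summit was 97.1 kb from Ltf. The scWAT list held another 2 peaks, 21.9 kb (3.05, 70.5%) and 8.56 kb upstream (3.09, 65.6%), vWAT with estradiol had 1 downstream at Ccrl2 (3.71, 86.8%), and Liver had 1 inside Ltf (3.33, 57.4%). None of these 4 peaks was in another list.

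Ccn5, like Xbp1 and Rara, had 2 loci that were found in both white fat lists with estradiol and in no other list. Susd3 also had such a locus. Ccn5 encodes a secreted matricellular protein of the CCN family, also known as WISP2, and is on chromosome 2 (chr2:163820752-163833146). A peak on its low-coordinate side was found in both white fat lists with estradiol, 16.6 kb away in scWAT (enrichment 9.13, rank 943, 5.25%, −log10 q-value 54.8) and 16.7 kb away in vWAT (7.36, rank 4255, 20.5%, −log10 q-value 13.3). At the low-coordinate end of the gene, scWAT (4.41, 27.3%) and vWAT with estradiol (4.03, 76.9%) also had overlapping peaks, with summits 37 and 214 bp inside the span. The vehicle list had a peak 2.82 kb inside the gene (4.29, 66.6%) that was in no other list. Single-list peaks lay 22.1 kb away in vWAT with estradiol (4.89, 49.5%), 13.0 kb away in scWAT (3.16, 63.1%) and 6.95 kb away on the other side in Liver (3.23, 86.4%). The nearest BAT summit was 176 kb away.

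Susd3, a sushi domain membrane protein gene that estrogen raises in human breast cancer cells (chr13:49230511-49248706, minus strand), had peaks in the white fat lists with estradiol only among the 5 lists, and all of them lay in or at Card19. A peak 24.7 kb away was listed in vWAT (enrichment 3.60, 89.9%) and in scWAT (3.36, 53.9%). scWAT also had a peak 14980 bp away, 495 bp after the annotated start of Card19 (3.47, 48.6%). No Liver summit lay within 25 kb, and the nearest in BAT and in vWAT with vehicle was 92.6 kb away. The farther peaks of Susd3 and the shared peak of Ltf were the last inside the 25 kb limit, and the first outside it were a BAT peak 26.3 kb from Ctsd (3.68, 77.3%) and peaks 27.7 kb from Xbp1 in vWAT with estradiol (6.29, 28.1%) and scWAT (2.92, 75.9%).

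The member peaks found in the most lists lay nearer to other genes. The 4 member loci found in at least 4 lists were all nearer to a neighbour than to the member. Those of Xbp1, Rara and Ccnd1 had summits within 1 kb of an end of that neighbour. The matching shares of all loci found in at least 4 lists were not counted. Nothing particular to the member loci was therefore read from this. Within 1 kb of an end of another protein-coding gene lay 4 of the 19 member peaks of vWAT with estradiol, 5 of 18 in scWAT, 2 of 4 in BAT, 3 of 13 in Liver and 3 of 6 in vWAT with vehicle. At an end of any gene, the member included, the counts were 5, 7, 2, 5 and 4. Over the whole lists, such peaks numbered 4981 of 20715, 5332 of 17971, 1788 of 5193, 5387 of 21411 and 3851 of 7400. The last of these is 52.0% of the list of vWAT with vehicle. The counts at an end of another gene have no matching count over all peaks. Which gene, if any, such a peak acts on was not tested.

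**Figure D4:**
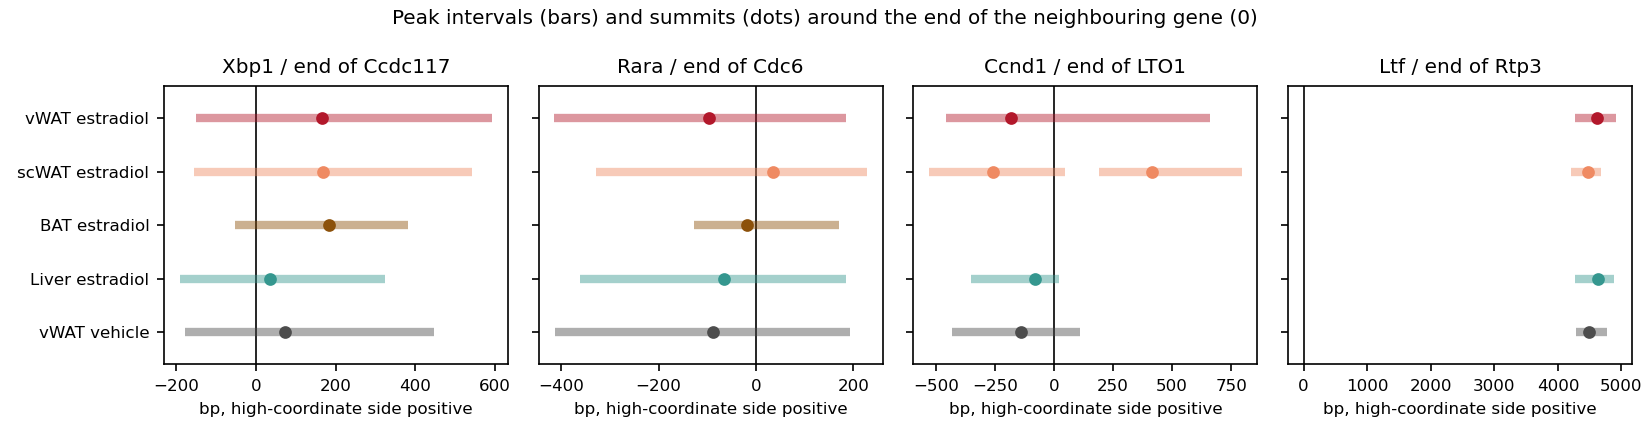
Peak intervals (bars) and summits (dots) of the 4 loci found in at least 4 lists, in bp from the nearer end of the neighbouring gene (vertical line at 0), 1 row per list. At Xbp1 the summits of vWAT with estradiol, scWAT and BAT lie at 165 to 184 bp, and those of Liver and of vWAT with vehicle at 34 and 73 bp.

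In vWAT, 15 of the 19 member peaks with estradiol had no overlapping peak with vehicle, as did 77.3% of all peaks of the list. They belonged to 6 of the 9 genes (Xbp1, Rara, Myc, Ltf, Ccn5 and Susd3), against 46.3% of all genes with such a peak. The 4 peaks held with both treatments were those at Ccdc117, Cdc6 and LTO1 and the upstream peak of Ltf. Of the 6 vehicle peaks 2, in Ctsd and Ccn5, had no estradiol counterpart (33.3%, against 36.2% of all vehicle peaks), and 17.7% of all genes had such a vehicle peak. The lists differ in length. When both lists were reduced to the 5193 peaks with the highest −log10 p-values, 2 of 6 member peaks of vWAT with estradiol were absent from the vehicle list, against 56.3% of all peaks. The count of 15 thus depended on the length of the lists. Among the 15 peaks absent with vehicle, 7 were found in scWAT (46.7%, against 38.7% of all such peaks) and 1 in Liver (6.67%, against 9.91%).

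In Liver 8 of the 13 member peaks were in no other list, against 71.4% of all Liver peaks. The other 5 overlapped a peak of vWAT with estradiol (38.5%), a share that was not counted over all Liver peaks. The 3 Liver peaks of the highest rank were those at Ccdc117, Cdc6 and upstream of Ltf, all shared with fat, and the next was the Liver-only peak upstream of Ctsd (10.5%). In BAT 2 of 4 member peaks were shared by all lists, against 27.4% of all BAT peaks, and 2, near Ccnd1 and Ctsd, were in no other list, against 48.0%. The −log10 q-value reached 2 in 2 of these 4 peaks, and in 33.5% of the whole BAT list. That list came from 1 library, and a gene without a BAT peak may lie below what it could show.

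A list of 29 other estrogen response genes, the 9 genes left out, was counted in the same way. With estradiol, 22 of 29 had a peak in vWAT, 22 in scWAT, 8 in BAT and 19 in Liver, and 15 had one with vehicle in vWAT, with the percentages of all genes as above. The 4 whose strongest peak ranked highest in vWAT with estradiol were Elf3, an epithelial ETS factor (enrichment 19.4, rank 56), Greb1, a classical target and ERα cofactor (16.9, rank 197), Rab31, a small GTPase (15.6, rank 364), and Igfbp4, which binds insulin-like growth factors (15.5, rank 391). Among the 9 members only Xbp1 (rank 57) had a peak in this range of ranks, and the strongest peaks of the next genes were those of Rara (rank 2921), Ccn5 (rank 4255), Ltf (rank 5174) and Ccnd1 (rank 5647). Of these peaks only that of Ccn5 had the member as its nearest gene. Those of Xbp1, Rara, Ltf and Ccnd1 were nearest to Ccdc117, Cdc6, Rtp3 and LTO1. For the other estrogen response genes the nearest gene of each peak was not counted.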

How the data were processed

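ERα ChIP-seq peak lists of 12 of the 21 libraries were used. Neither RNA-seq nor the H3K27ac libraries entered. The submitters' processing notes name mm10, BWA 0.7.12 and HOMER without saying what each did. How peaks were called, at which threshold, against which control and how libraries were joined is not given in the sources used here. Each group has a single list, per the labels. In these lists without a header the authors deposited for each peak an enrichment ratio, a −log10 p-value, a −log10 q-value and a whole-number score that is 10 times the −log10 p-value.

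Gene spans came from the RefSeq table of GRCm38.p6, and all 9 members matched by symbol. Coordinates count from 1. An overlap of 1 bp or more made peaks shared, and ranks used enrichment, with ties at their best rank. Peaks on chromosomes 1 to 19 and X were kept. No test was made, since each group has 1 list. All members, every peak of theirs and the 4 leading genes of the other estrogen list were named by rule. The members and lists were chosen with earlier results of these data known. Assignment and overlap were tested on planted peaks. Alternatives were the distance, a −log10 q-value of at least 2, lists of equal length, the nearest gene alone, summits within 100 bp, ranks by p-value, and, chosen after seeing the data, leaving out peaks at the ends of other genes. Python 3.11.15, numpy 2.4.6, pandas 2.3.3 and matplotlib 3.10.9 were used.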

Additional observations from a re-analysis of the deposited data

How the results depend on the processing

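Counts of members and of their peaks depended on the distance allowed and on the length of the lists. In the order vWAT with estradiol, scWAT, BAT, Liver and vWAT with vehicle, the members with a peak numbered 3, 4, 0, 3 and 2 within 5 kb (46.4%, 45.5%, 18.9%, 50.8% and 31.5% of all genes) and also 3, 4, 0, 3 and 2 inside the span alone (28.6%, 26.5%, 10.7%, 33.3% and 16.1%), with 6, 5, 0, 4 and 2 peaks in both cases. Within 100 kb the peaks numbered 41, 35, 9, 31 and 14, and members with a BAT peak numbered 7 (53.0% of all genes). With each peak given to the nearest gene alone, the members with a peak numbered 4, 5, 2, 6 and 2 in the same order, and the peaks 12, 9, 2, 7 and 2. The share of all genes was not counted for this setting. When a −log10 q-value of 2 or more was asked for, BAT had 2 members (13.9% of all genes) and 2 peaks, and Liver 5 members (50.6%) and 8 peaks. With lists held to 5193 peaks, 6 peaks of vWAT with estradiol, 5 of scWAT (3 members, 27.8% of all genes) and 5 of Liver (4 members, 35.8%) were counted. Without peaks at the ends of other genes, a setting chosen after seeing the data, BAT had 2 members and 2 peaks, and vWAT with vehicle 3 members and 3 peaks. Here too the share of all genes was not counted. The member peaks of vWAT with estradiol that were absent with vehicle numbered 15 of 19, against 77.3% of all peaks of the list. They were 16 of 19 with sharing defined by summits at most 100 bp apart (all peaks, 84.6%) and 13 of 17 with the q-value limit (79.5%). With lists of equal length they were 2 of 6 (all peaks, 56.3%). Within 5 kb they were 6 of 6 and within 100 kb 31 of 41, both against the same 77.3% of all peaks. Ranking by p-value moved the median rank of the members' strongest peaks little, for instance to 18.8% of the list by p-value against 17.7% by enrichment in Liver. Of 80 alternative values in all, 51 moved by over 1.5 times or fell to 0, and 29 did not. This tally does not measure robustness. Counts were compared as raw numbers, a wider distance can only add peaks, and the BAT list is unchanged at 5193 peaks.

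No paired analysis was possible because the libraries of a group share 1 list, and for the same reason no library was left out in turn. The read depth behind the lists is unknown here.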
